A study of Mus musculus with 10 samples.

Results

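Blood clotting and clot removal depend on plasma proteins that are made largely in the liver, and 34 genes of this system were followed in the livers of starved and fed mice. They were taken by symbol from a list of coagulation and fibrinolysis factors, and all 34 were among the 23420 gene rows of the deposited tables. The starved group was 5 male C57BL/6 mice kept without food but with water for 48 hours, and the fed group was 5 male C57BL/6 mice on standard chow. All were 4 months old, and the labels give 5 mice and 5 liver libraries a group, numbered 1 to 5. The labels also speak of pairs of mice, but the numbers were not taken as pairs. Results with the number as a replicate block are given at the end. The series asks how the metabolic state acts on genes through β-hydroxybutyrylation of histone lysines, a mark derived from a ketone body.

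In clotting, tissue factor binds factor VII and starts a cascade of proteases that ends in thrombin, which turns fibrinogen into fibrin. Factors VIII, IX and XI enlarge the thrombin burst, and factor XII, prekallikrein and kininogen form the contact system. Antithrombin, the protein C system, the protein Z system and the tissue factor pathway inhibitor restrain the cascade, and plasmin, made from plasminogen, dissolves fibrin. Hepatocytes make most of the circulating factors. Factor VIII, von Willebrand factor and thrombomodulin are known as endothelial products, and the A chain of factor XIII as a product of macrophages and megakaryocytes.

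Some members rose or fell in starved livers. The members with the most reads, the fibrinogen chains, prothrombin, antithrombin and the kininogen gene Kng1, were not called. Per length, histidine-rich glycoprotein, which was called, ranked above prothrombin in starved livers and above antithrombin in both groups. Factor IX, thrombomodulin, protein S, histidine-rich glycoprotein and the low transcripts of tissue plasminogen activator and the urokinase receptor rose. Factors VIII, X and XI, tissue factor, prekallikrein, protein C, protein Z and its partner inhibitor, the tissue factor pathway inhibitor and carboxypeptidase B2 fell. The calls of factor X, protein C and tissue plasminogen activator were lost in 10 or more alternative settings or omissions of libraries. That of carboxypeptidase B2 was lost in 5. In numbers, 6 of the 32 members with enough reads to test rose and 10 fell (edgeR's quasi-likelihood test, Benjamini-Hochberg adjusted p under 0.05). Over all 12796 genes tested, 38.6% were called, 18.6% as higher and 20.0% as lower in starved liver. The median log2 fold change of starved over fed was −0.13 over the 32 tested members and 0.0035 over all tested genes, and the median absolute change was 0.39 and 0.37. With library totals alone as scaling, the median of all tested genes was −0.15. In that setting 4 members were higher and 15 lower, beside 11.6% and 27.3% of all tested genes. At an adjusted p under 0.01, 2 members were higher and 7 lower, beside 9.94% and 11.9% of all tested genes. F13a1 and Serpina5 were too low to test.

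Libraries held 18197194 to 28065220 gene reads in starved and 22978413 to 29941358 in fed livers. The 34 members took 2.53% ± 0.352 of these reads in starved and 2.79% ± 0.374 in fed livers (SD, n = 5 each). Levels below are read counts per 1000000 (CPM) after TMM scaling, a trimmed-mean correction for library composition, and values in a row follow mice 1 to 5. Of 7 hepatocyte markers in the files Cps1, Apoa1 and Hnf4a rose (1.63, 0.99 and 0.51) and Ttr and Serpina1c fell (−0.88 and −0.70), with a summed level of 109088 to 171142 CPM in starved and 86031 to 127904 CPM in fed livers. Starved library 2 correlated less with the other starved libraries (mean r of log2 CPM over genes 0.947) than the other 4 did (0.972 to 0.973), and starved libraries 2 and 4 were chosen for omission with earlier results of these data known. This pair was the highest among starved livers for 5 of the 32 tested members (15.6%: F5, F9, Kng2, Pros1 and Thbd), beside 24.7% of all tested genes. It was the lowest for 7 (21.9%: F10, Plau, Klkb1, Serpind1, Serpina10, Proz and Cpb2), beside 25.5% of all tested genes. Without them 5 members rose and 7 fell, beside 40.9% of 13080 tested genes called, 20.2% as higher and 20.7% as lower. In whole liver, fewer cells of a type and less RNA per cell cannot be told apart.

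**Figure D1:**
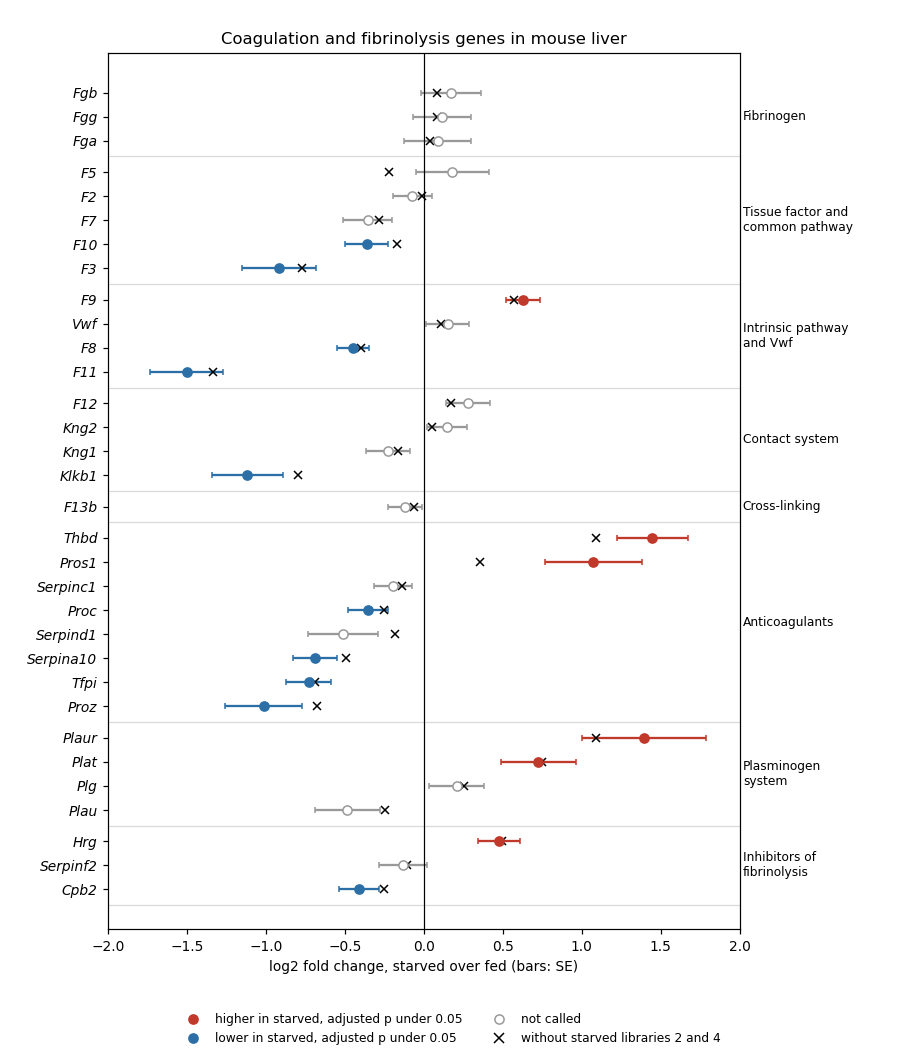
Log2 fold change of starved over fed livers for the 32 tested members, grouped by role, with SE bars; filled points passed an adjusted p under 0.05 and crosses give the value without starved libraries 2 and 4. F11 lies lowest at −1.50 and Thbd highest at 1.45, and the 3 fibrinogen chains lie between 0.09 and 0.17.

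F11 had the largest fall among the members, F9 rose, and Klkb1, which lies beside F11, also fell. Promoter sequence is shown for these 3 genes, which are among the 9 called members that kept their call in every alternative tried. Others of the 9 are not shown. Of those, the promoters of F3 and F8 held none of the searched motifs, Proz held GTTAAT and a Tfpi promoter held CACGTG. Serpina10 and Thbd had no promoter sequence. Each run covers the 250 bases before and the first 50 bases of the gene on its own strand (RefSeq, GRCm38.p6, the same build as mm10), and capitals mark matches to the searched motifs. F11 is chr8:45261982-45262281 on the minus strand, Klkb1 is chr8:45294786-45295085 on the minus strand and F9 is chrX:59999214-59999513 on the plus strand.
F11: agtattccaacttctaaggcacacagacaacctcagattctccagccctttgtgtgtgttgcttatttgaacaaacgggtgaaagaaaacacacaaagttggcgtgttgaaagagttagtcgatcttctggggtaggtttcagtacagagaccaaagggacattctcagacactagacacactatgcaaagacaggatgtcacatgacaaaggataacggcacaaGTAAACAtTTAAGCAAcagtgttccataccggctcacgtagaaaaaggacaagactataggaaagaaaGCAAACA
Klkb1: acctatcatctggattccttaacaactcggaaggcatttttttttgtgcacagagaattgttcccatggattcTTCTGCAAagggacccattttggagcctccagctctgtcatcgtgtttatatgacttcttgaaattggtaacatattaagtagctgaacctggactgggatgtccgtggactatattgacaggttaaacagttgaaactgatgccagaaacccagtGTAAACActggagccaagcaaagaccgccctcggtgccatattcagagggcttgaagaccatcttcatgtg
F9: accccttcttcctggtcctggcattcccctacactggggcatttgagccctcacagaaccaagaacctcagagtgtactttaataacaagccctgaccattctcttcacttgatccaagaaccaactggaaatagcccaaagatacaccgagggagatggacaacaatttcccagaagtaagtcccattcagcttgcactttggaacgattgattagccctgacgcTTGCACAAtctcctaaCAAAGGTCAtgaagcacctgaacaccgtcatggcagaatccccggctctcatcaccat
The forkhead motif TGTTTAC occurs on the opposite strand 25 bases before the RefSeq start of F11 and 21 bases before that of Klkb1. The GENCODE start of Klkb1 lies further upstream, at 45294859, so that match is inside its gene model. Among the 26 members with a promoter sequence, TGTTTAC occurs in 0 others. It occurs on either strand in 3.65% of all 32851 promoters searched. F9 holds the HNF4 motif CAAAGGTCA 8 bases before its start and a C/EBP motif TTGCNNAA 24 bases before it. As background, both kinds of factor are known to bind the human F9 promoter. CAAAGGTCA or CAAAGTCCA occurs in 0.950% of all promoters and in 2 of the 26 members (F7 and F9), and TTGCNNAA in 10.8% and in 11 of 26. A C/EBP match also lies 17 bases before the start of F11 and 177 bases before that of Klkb1, and the forkhead motif TGTTTGC lies in the first 50 bases of F11. The motif GTTAAT, part of the HNF1 site, was found in 5 of 26 members (F2, F13b, Fga, Fgb and Proz) and in 7.10% of all promoters. These matches are descriptions of the letters and carry no test.

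Fibrinogen, the substrate of thrombin, is built from the chains encoded by Fga, Fgb and Fgg, which lie side by side on chromosome 3 (83007724 to 83049863, mm10). They were the 3 members with the highest level per length in both groups, and none was called. Fga had 4929, 4007, 4242, 7026 and 5698 CPM in starved livers, against 3279, 6615, 5421, 4277 and 4803 CPM in fed livers. Fgb had 3871, 4075, 3598, 5886 and 5045 CPM in starved livers, against 2914, 5175, 4295, 3480.3 and 4106 CPM in fed livers. Fgg had 3589, 3313, 3049, 4676 and 4404 CPM in starved livers, against 2503, 4508, 3901, 3092 and 3556 CPM in fed livers. The groups overlapped for each chain, with starved livers 4 and 5 and fed liver 2 high and fed liver 1 low for all 3. The log2 fold changes were 0.09 (95% interval −0.38 to 0.55) for Fga, 0.17 (−0.24 to 0.58) for Fgb and 0.12 (−0.28 to 0.52) for Fgg, so changes beyond about 1.5-fold lay outside these intervals. With library totals alone the values were −0.05 for Fga, 0.02 for Fgb and −0.03 for Fgg. Together the chains took 1.28% ± 0.308 of gene reads in starved and 1.30% ± 0.262 in fed livers (SD, n = 5 each).

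Within a library the chains kept close proportions. The count ratio of Fga to Fgb averaged 1.15 ± 0.107 in starved and 1.21 ± 0.0642 in fed livers, that of Fga to Fgg 1.35 ± 0.110 and 1.38 ± 0.0581, and that of Fgb to Fgg 1.18 ± 0.0710 and 1.14 ± 0.0254 (SD, n = 5 each, starved before fed). None of the 3 differences passed an exact two-sided permutation test (adjusted p = 0.455, 0.659 and 0.455 over 4 ratios). The ratio varied more among starved than among fed livers for each pair of chains.

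In the tissue factor and common pathway, F3 fell and F10 fell slightly, while F2, F5 and F7 were not called. F3, which encodes tissue factor, the trigger of clotting, is a low transcript in liver. It had 1.75, 2.30, 2.21, 1.12 and 2.55 CPM in starved livers, against 2.81, 4.77, 3.09, 4.34 and 3.58 CPM in fed livers. The groups did not overlap, and the log2 fold change was −0.92 ± 0.23 (SE; adjusted p = 0.00953, edgeR's quasi-likelihood test). F10, the protease that forms thrombin, had 387, 287, 366, 258 and 381 CPM in starved livers, against 384, 457, 416, 437 and 468 CPM in fed livers. Starved livers 2 and 4 were lowest, and starved liver 1 was above fed liver 1. Its fall (−0.36 ± 0.13; adjusted p = 0.0493, edgeR) lost its call without starved library 2, 3 or 4 or fed library 2, 3, 4 or 5 (−0.40 to −0.26) and without starved libraries 2 and 4 together (−0.17). DESeq2 size factors (−0.34) or no filter on low counts (−0.36) ended it too, at adjusted p = 0.0620 and 0.0699 in edgeR. A replicate block did so as well (−0.38, adjusted p = 0.0750, edgeR).

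Prothrombin, the product of F2 and precursor of thrombin, had 1686, 1854, 1720.5, 1506 and 2054 CPM in starved livers, against 1589, 2002, 1834, 1932 and 1918 CPM in fed livers. The groups overlapped over nearly their whole range (−0.07, 95% interval −0.34 to 0.19). F5, the cofactor of factor X, averaged 491 ± 187 CPM in starved and 433 ± 74.4 CPM in fed livers, with starved livers 2 and 4 highest at 774 and 578 CPM, and its exons overlap those of Gm16548 on the opposite strand. Its log2 fold change was 0.18 with all libraries and −0.22 without these 2, with no call in either. F7, the partner of tissue factor, averaged 79.1 ± 17.4 CPM in starved and 101 ± 12.7 CPM in fed livers (−0.36; adjusted p = 0.0907, edgeR). It was called without starved library 2 (−0.41) or 5 (−0.44) and with library totals alone (−0.52).

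Of the intrinsic pathway genes, F11 and F8 fell and F9 rose. F11 (chromosome 8, 45241174 to 45262031), the factor that activates factor IX, had 21.3, 20.6, 19.2, 16.3 and 33.7 CPM in starved livers, against 46.3, 84.1, 82.6, 48.9 and 52.7 CPM in fed livers. The groups did not overlap, and starved liver 5 stood above the other starved livers. The log2 fold change was −1.50 ± 0.23 (adjusted p = 0.000624, edgeR), 2.83-fold lower in starved livers, and −1.33 without starved libraries 2 and 4. F9 (chromosome X, 59999464 to 60030759), the next protease of the cascade, had 384, 471, 379, 436 and 427 CPM in starved livers, against 237, 296, 255, 289.7 and 277 CPM in fed livers. All 5 starved livers lay above all 5 fed livers, 1.55-fold on average (0.63 ± 0.11; adjusted p = 0.00109, edgeR). Per length, F9 ranked 13 of 34 in starved and 16 of 34 in fed livers, and F11 24 and 23.

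F8, the cofactor of factor IX, had 35.1, 40.1, 40.4, 30.5 and 36.8 CPM in starved livers, against 48.1, 48.3, 48.0, 50.9 and 54.2 CPM in fed livers. The groups did not overlap, with a log2 fold change of −0.45 ± 0.10 (adjusted p = 0.00481, edgeR). Vwf, which carries factor VIII in plasma, averaged 9.85 ± 1.71 CPM in starved and 8.86 ± 0.655 CPM in fed livers and was not called (0.15; 95% interval −0.15 to 0.45). Of 12 endothelial markers 4 fell and 1 rose, beside 20.0% and 18.6% of all tested genes. The median log2 fold change of the 12 markers was −0.21. Their summed level was 364 to 478 CPM in starved and 413 to 489.6 CPM in fed livers, and none was at 0. The largest endothelial changes were those of Lyve1 (1.74 ± 0.21), Clec4g (−0.57 ± 0.14), Kdr (−0.44 ± 0.10) and Stab2 (−0.41 ± 0.12). Their part in the values of F8, Vwf, Tfpi, Thbd and Plat was not tested.

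**Figure D2:**
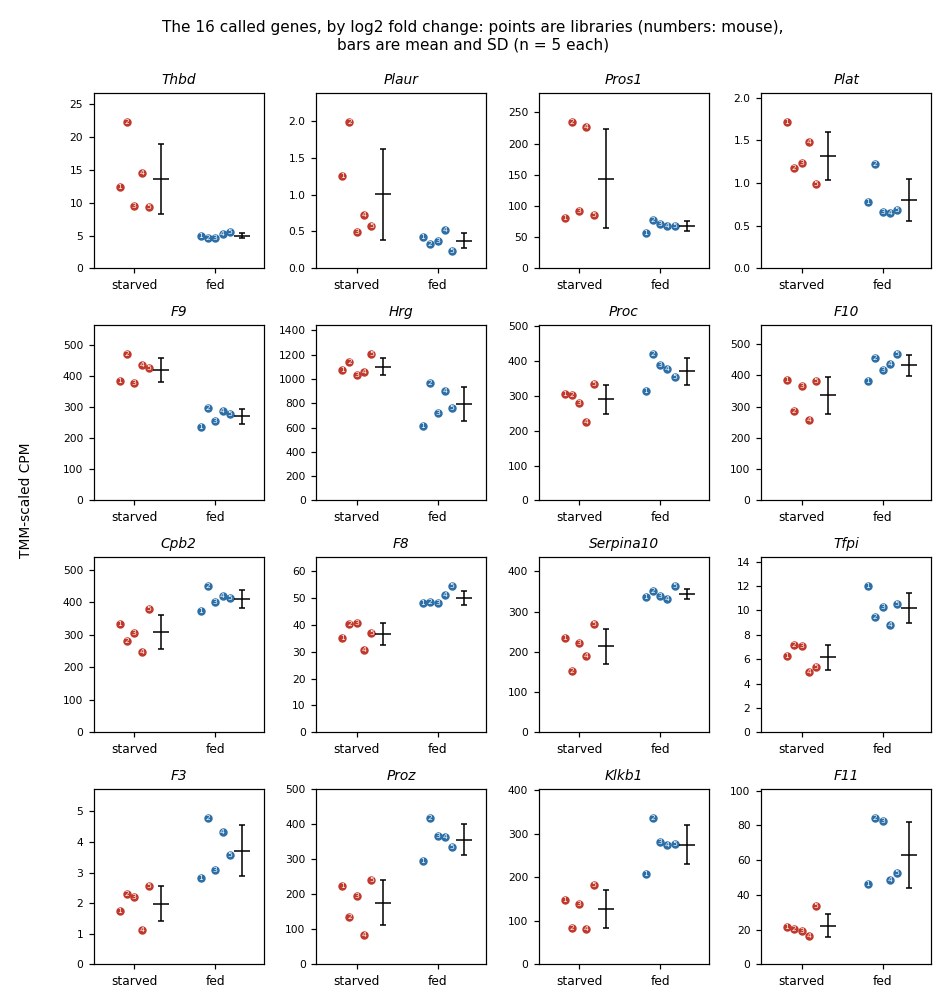
TMM-scaled CPM per library for the 16 called members, in order of log2 fold change, with starved livers left of fed livers, points numbered by mouse and bars for mean and SD (n = 5 each). The groups do not overlap in 11 of the panels, which show called genes only, beside 29.9% of all tested genes, called or not. Starved livers 2 and 4 stand apart in the panel of Pros1 at 234 and 227 CPM.

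In the contact system, Klkb1 fell and F12, Kng1 and Kng2 were not called. Klkb1 (chromosome 8, 45266689 to 45294859) encodes prekallikrein, which is activated by factor XII and releases bradykinin from kininogen. It had 147, 82.8, 139, 82.5 and 183 CPM in starved livers, against 208, 336, 282, 274 and 278 CPM in fed livers. All starved values lay below all fed values, lowest in starved livers 2 and 4. The log2 fold change was −1.12 ± 0.23 (adjusted p = 0.00277, edgeR), 2.17-fold lower in starved livers, and −0.80 without these 2 libraries. F12 averaged 463 ± 80.9 CPM in starved and 381 ± 46.1 CPM in fed livers (0.28; 95% interval −0.02 to 0.58).

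Mice have a pair of kininogen genes, Kng1 and Kng2, where humans have a single one. Kng1 had 1861, 2015, 1750.3, 1614 and 2263 CPM in starved livers, against 1815, 2718, 2143, 2218 and 2225 CPM in fed livers. Kng2 had 260.1, 339.8, 239, 304 and 302 CPM in starved livers, against 222, 288, 234, 278 and 287 CPM in fed livers. The groups overlapped for both genes (−0.23, 95% interval −0.53 to 0.08, for Kng1 and 0.14, −0.13 to 0.42, for Kng2), and Kng1 was called as lower with library totals alone (−0.38). The count ratio of Kng2 to Kng1 within a library was 0.140, 0.169, 0.137, 0.188 and 0.133 in starved livers, against 0.122, 0.106, 0.109, 0.125 and 0.129 in fed livers. These ratios did not overlap (log2 difference 0.37; exact two-sided permutation p = 0.00794, the smallest that 5 against 5 can give, adjusted p = 0.0317 over 4 ratios). The call was lost without starved library 4 (0.29), without any 1 fed library (0.33 to 0.40) and without starved libraries 2 and 4 (0.21). The ratios still did not overlap in any of these omissions. With 3 against 5 libraries the exact p cannot fall below 0.0179 before its adjustment over 4 ratios. The genes are paralogs, and reads that map to both were left uncounted, so their counts are uncertain.

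Among the 8 tested anticoagulants, of 32 tested members, 2 rose and 4 fell, beside 18.6% and 20.0% of all tested genes. Thbd (chromosome 2, 148404466 to 148408188) encodes thrombomodulin, the receptor that turns thrombin into an activator of protein C. It had 12.3, 22.2, 9.49, 14.5 and 9.33 CPM in starved livers, against 4.99, 4.64, 4.56, 5.23 and 5.47 CPM in fed livers. Every starved liver was above every fed liver, 2.73-fold on average (1.45 ± 0.23; adjusted p = 0.000652, edgeR), and the log2 fold change was 1.09 without starved libraries 2 and 4.

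Pros1, which encodes protein S, the cofactor of activated protein C, had 81.1, 234, 92.0, 227 and 85.9 CPM in starved livers, against 56.2, 78.0, 71.4, 67.9 and 68.7 CPM in fed livers. The groups did not overlap, but starved livers 2 and 4 were far above the others. Its log2 fold change of 1.07 ± 0.31 (adjusted p = 0.0173, edgeR) was 0.36 without these 2 libraries (adjusted p = 0.0150, edgeR). Proc, which encodes protein C, had 306, 304, 281, 224 and 335 CPM in starved livers, against 315, 419, 387, 376 and 355 CPM in fed livers. Starved liver 5 lay above fed liver 1, and starved liver 4 was lowest. The fall (−0.35 ± 0.13; adjusted p = 0.0437, edgeR) lost its call without starved library 1, 3 or 4 or fed library 2, 3, 4 or 5 (−0.37 to −0.25) and without starved libraries 2 and 4 (−0.25). It was also lost with DESeq2 size factors (−0.33, adjusted p = 0.0599, edgeR), with no filter on low counts (−0.35, adjusted p = 0.0615, edgeR) or with a replicate block.

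Protein Z and its partner both fell. Proz, a vitamin K-dependent cofactor, had 223, 137, 197, 84.3 and 239.7 CPM in starved livers, against 296, 417, 367, 363 and 336 CPM in fed livers. Serpina10, the protein Z-dependent inhibitor of factor X, had 235, 153, 221, 189 and 268 CPM in starved livers, against 337, 352, 338, 330.5 and 363 CPM in fed livers. Neither gene's groups overlapped, and starved livers 2 and 4 were the lowest for both. The log2 fold changes were −1.02 ± 0.24 for Proz (adjusted p = 0.00682, edgeR) and −0.69 ± 0.14 for Serpina10 (adjusted p = 0.00288, edgeR), and −0.68 and −0.49 without these libraries. Tfpi, the inhibitor of tissue factor with factor VII, had 6.26, 7.16, 7.08, 4.95 and 5.33 CPM in starved livers, against 11.98, 9.44, 10.3, 8.81 and 10.5 CPM in fed livers. Its groups did not overlap either (−0.73 ± 0.14; adjusted p = 0.00245, edgeR).

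Serpinc1, which encodes antithrombin, the main inhibitor of thrombin, had 2353, 2477, 2405, 2161 and 2686 CPM in starved livers, against 2314, 2974, 2682, 3099 and 2775 CPM in fed livers. Fed liver 1 lay among the starved values, and the gene was not called (−0.20; 95% interval −0.46 to 0.07). Its exons overlap those of Zbtb37 on the opposite strand. Serpind1, the heparin cofactor that also inhibits thrombin, averaged 422 ± 148 CPM in starved and 601 ± 71.7 CPM in fed livers (−0.51; adjusted p = 0.0869, edgeR), with starved livers 2 and 4 lowest at 269.5 and 270.2 CPM. It was called without starved library 5 (−0.66), and both genes were called with library totals alone (−0.66 for Serpind1 and −0.35 for Serpinc1). Serpina5, the protein C inhibitor, had 14 reads over all 10 libraries.

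**Figure D3:**
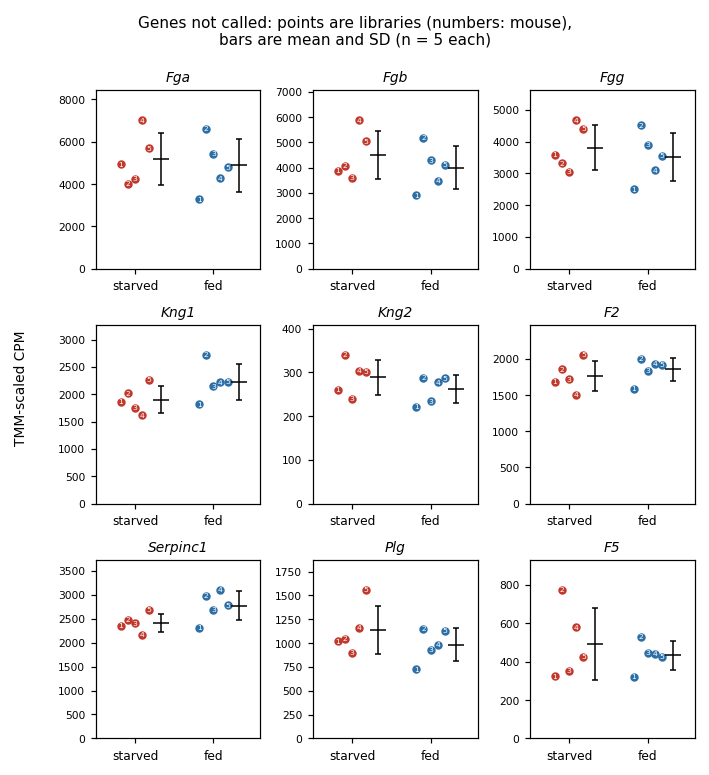
TMM-scaled CPM per library for 9 members that were not called, with starved livers left of fed livers, points numbered by mouse and bars for mean and SD (n = 5 each). The starved and fed points overlap in each panel, and F5 reaches 774 and 578 CPM in starved livers 2 and 4.

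In the plasminogen system the activator Plat and the receptor Plaur rose from low levels, while Plg and Plau were not called. Plg, the plasmin precursor, had 1019, 1044, 900.3, 1161 and 1557 CPM in starved livers, against 726, 1151, 928, 984 and 1129.7 CPM in fed livers. The groups overlapped (0.21; 95% interval −0.17 to 0.59), and Plg exons overlap those of Slc22a3 on the opposite strand. Plat, the tissue plasminogen activator, had 1.71, 1.18, 1.23, 1.48 and 0.985 CPM in starved livers, against 0.773, 1.23, 0.662, 0.654 and 0.684 CPM in fed livers. Fed liver 2 lay within the starved range. The rise (0.72 ± 0.24, adjusted p = 0.0301, edgeR) rested on 262 reads in all. It lost its call without starved library 1 or 4 or fed library 1, 3, 4 or 5 (0.61 to 0.71). Its call was also lost without starved libraries 2 and 4 (0.75, adjusted p = 0.0501, edgeR). Library totals alone (0.58, adjusted p = 0.0759, edgeR) or a replicate block ended it too.

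Plaur, the receptor of the urokinase activator, had 1.25, 1.98, 0.492, 0.723 and 0.580 CPM in starved livers, against 0.421, 0.331, 0.368, 0.516 and 0.242 CPM in fed livers. Starved livers 1 and 2 were highest and starved liver 3 overlapped the fed range (1.39 ± 0.39; adjusted p = 0.0158, edgeR; 162 reads in all). Plau, the urokinase itself, averaged 1.24 ± 0.360 CPM in starved and 1.73 ± 0.168 CPM in fed livers (−0.49; adjusted p = 0.0815, edgeR) and was called without starved library 5 (−0.61). These genes are used by blood-derived cells. Over all tested genes 18.6% rose and 20.0% fell. Of 7 neutrophil markers with a count row, 3 were tested and all 3 rose, S100a8, S100a9 and Retnlg (log2 fold changes 1.96, 2.04 and 3.12). The summed level of the neutrophil list was 2.84 to 22.2 CPM in starved and 1.86 to 3.65 CPM in fed livers, and 2 of its genes stayed under 0.1 CPM in every library. Of 10 Kupffer cell markers 9 fell and 0 rose, most of all Emr1 (−1.51), Cd5l (−1.29) and Timd4 (−1.09), with a sum of 220.2 to 423 CPM in starved and 497 to 797 CPM in fed livers and none at 0. Of 8 platelet markers 4 were tested and Itga2b fell (−0.58), with a sum of 3.71 to 6.69 CPM in starved and 6.26 to 7.47 CPM in fed livers. Their part in the values of Plat, Plau, Plaur and F13a1 was not tested.

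Hrg rose and Cpb2 fell among the inhibitors and modulators of fibrinolysis. Hrg encodes the histidine-rich glycoprotein, which binds heparin, fibrinogen and plasminogen. It had 1076, 1140.4, 1031, 1059 and 1202 CPM in starved livers, against 616, 967, 723, 897 and 761 CPM in fed livers. The groups did not overlap, and starved livers varied less (SD 69.0 CPM) than fed livers (139.9 CPM). The log2 fold change was 0.48 ± 0.13 (adjusted p = 0.0160, edgeR), and the gene was no longer called under scaling by library totals (0.32; adjusted p = 0.0647, edgeR). Per length, Hrg ranked 5 of 34 in starved and 6 of 34 in fed livers.

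Cpb2, a carboxypeptidase that protects fibrin from plasmin, had 334, 279, 307, 246 and 380.5 CPM in starved livers, against 373, 449, 402, 419.8 and 412 CPM in fed livers. Starved liver 5 lay above fed liver 1. The fall (−0.41 ± 0.13; adjusted p = 0.0233, edgeR) lost its call without starved library 4 (−0.32) or fed library 2 or 4 (−0.38 and −0.40) and without starved libraries 2 and 4 (−0.25). Serpinf2, the plasmin inhibitor, averaged 695 ± 82.7 CPM in starved and 762 ± 158 CPM in fed livers (−0.13; 95% interval −0.47 to 0.20). In factor XIII, which cross-links fibrin, the carrier chain gene F13b averaged 301 ± 30.2 CPM in starved and 327 ± 28.8 CPM in fed livers (−0.12; −0.36 to 0.12), and the catalytic chain gene F13a1 had 106 reads in all libraries, with 0.0534 to 0.623 CPM in starved and 0.201 to 0.828 CPM in fed livers.

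Over the tested members, 11 had groups that did not overlap, 4 of them higher and 7 lower in starved livers, beside 29.9% of all tested genes (13.2% higher and 16.7% lower). The 4 were F9, Hrg, Pros1 and Thbd, and the 7 were F3, F8, F11, Klkb1, Proz, Serpina10 and Tfpi.

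**Figure D4:**
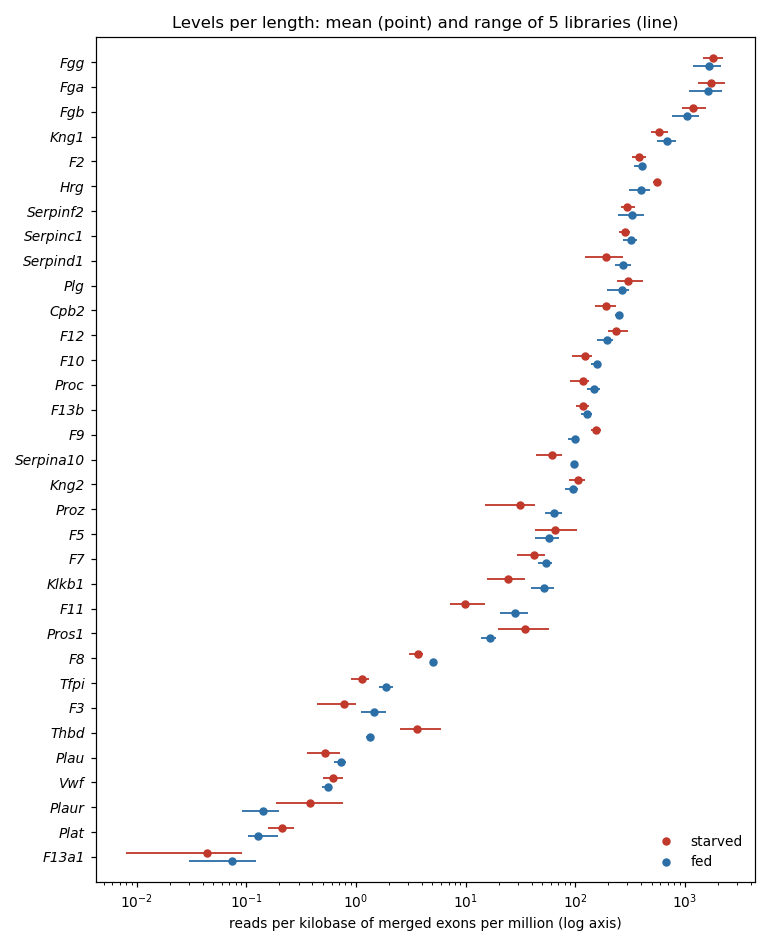
CPM divided by the length of merged exons in kilobases (RPKM) on a log axis for 33 members, ordered by the fed mean, with the starved point above the fed point and lines from the lowest to the highest of 5 libraries. Fgg and Fga lead in both groups, and Thbd moves above F3 and Tfpi in starved livers.

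Per kilobase of merged exons, the level ran over more than 4 orders of magnitude among members. Fgg averaged 1818 ± 336 RPKM (CPM divided by this length in kilobases) in starved and 1678 ± 366 RPKM in fed livers, Fga 1721 ± 407 and 1621 ± 415, and Fgb 1179.8 ± 249 and 1048 ± 225 (SD, n = 5 each, starved before fed). The ranges of Fgg and Fga overlapped in both groups, so their order is not set. Kng1 (585 ± 77.0 in starved and 684 ± 99.5 in fed livers) and F2 (384 ± 44.4 and 404 ± 34.9) came next in fed livers, and in starved livers Hrg (553 ± 34.6) lay between them. Thbd, at 3.65 ± 1.42 in starved and 1.34 ± 0.104 in fed livers, ranked 26 of 34 in starved and 28 in fed livers, and Pros1 21 in starved and 24 in fed livers. Merged exons count every annotated exon, so genes with long minor transcripts, such as Serpinc1, are placed too low on this scale.

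Several members are neighbours in the genome, and their calls and log2 fold changes are given side by side. F11 and Klkb1 lie 4.7 kb apart on the same strand of chromosome 8, and both fell. Beyond Klkb1, Cyp4v3 (−0.49 ± 0.16) and Fam149a (−1.48 ± 0.16) fell as well. On the other side the nearest coding gene, Mtnr1a, was not tested, and Fat1 beyond it was not called (0.03). Klkb1 exons overlap those of Gm45753 on the same strand, which has no count row. F7, F10 and Proz follow one another on the same chromosome with gaps of 1.5 and 4.2 kb. F7 was not called (−0.36), and F10 (−0.36) and Proz (−1.02) were called as lower. The next genes outside, Mcf2l (0.62) and Pcid2 (−0.14), were not called. Beyond Mcf2l, Atp11a fell (−0.99 ± 0.19) and Tubgcp3 rose (0.77 ± 0.19). Beyond Pcid2, Cul4a (−0.22) and Lamp1 (−0.18) were not called. Hrg, Kng2 and Kng1 lie on chromosome 16 with gaps of 24.2 and 28.4 kb, and of these Hrg was called (0.48) and Kng2 and Kng1 were not (0.14 and −0.23). Differences between neighbours were not tested.

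Genes that modify or act on these factors were also called in both directions. Over all tested genes, 18.6% were called as higher and 20.0% as lower. Of 14 genes of the vitamin K cycle and of factor processing and export, 3 rose and 3 fell, with a median log2 fold change of 0.05. Ggcx, the carboxylase that vitamin K-dependent factors need, averaged 50.5 ± 10.8 CPM in starved and 91.3 ± 21.8 CPM in fed livers (−0.85 ± 0.19). Gas6, a vitamin K-dependent ligand related to protein S (−1.59 ± 0.13), and Tpst1, a tyrosine sulfotransferase (−0.49 ± 0.15), fell too. Aifm2, a reductase of vitamin K (0.98 ± 0.17), Furin, a proprotein protease (0.66 ± 0.17), and Vkorc1l1, a relative of the vitamin K epoxide reductase (0.34 ± 0.11), rose. Vkorc1, the vitamin K epoxide reductase itself, named after its values were seen, stood at 67.9 ± 21.2 CPM in starved and 75.3 ± 7.27 CPM in fed livers and was not called.

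Among 11 further regulators of fibrinolysis, 8 were tested, 4 fell and 0 rose (median −0.55), beside 20.0% and 18.6% of all tested genes. Pzp, a broad protease inhibitor of mouse plasma, averaged 2107 ± 455 CPM in starved and 3908 ± 887 CPM in fed livers (−0.89 ± 0.20), and Lrp1, a clearance receptor, changed by −0.86 ± 0.17. Of 12 receptors and related genes of thrombin, protein C and platelets, 9 were tested, 1 rose and 3 fell (median −0.05), beside the same shares. Itgb3, an integrin chain, rose (1.71 ± 0.22), and Tfpi2, a protease inhibitor (−0.97 ± 0.25), Fgl2 (−0.60 ± 0.16) and Itga2b (−0.58 ± 0.14) fell.

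Of 12 transcription factors known to act on liver genes, 2 rose and 3 fell (median −0.21), beside 18.6% and 20.0% of all tested genes. Cebpb (1.05 ± 0.36) and Hnf4a (0.51 ± 0.18) rose, and Onecut1 (−1.29 ± 0.39), Ppara (−1.20 ± 0.21) and Cebpa (−0.82 ± 0.19) fell. Without starved libraries 2 and 4, Cebpb (0.65) and Hnf4a (0.20) were not called. There 0 rose and 4 fell, beside 20.2% and 20.7% of all tested genes.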

How the data were processed

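RNA-seq libraries were made from liver total RNA with a strand-marking Illumina kit, per the labels' protocols. Each deposited file gives raw, unscaled read counts as integers for 1 liver, by gene symbol. Tools listed in the submitters' processing notes are TopHat2 2.0.0, HTSeq, Bowtie2 2.0.0, edgeR 3.6.4 and CASAVA 1.8.2, with mm10 as the build. Neither the annotation nor the counter's strand setting is given in the sources used here, so genes with an opposite-strand partner are uncertain. The tallies of unassigned reads in the last rows stayed out of library sizes and tests. Reads with several alignments were 42.9% ± 3.68 of starved and 47.1% ± 0.780 of fed tallies, and reads in no gene 20.1% ± 2.99 and 18.1% ± 2.46 (SD, n = 5 each).

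Counts were analysed in R 4.3.3 with edgeR 4.0.16: filterByExpr kept 12796 genes, libraries were scaled by TMM, and starved minus fed was tested by quasi-likelihood with Benjamini-Hochberg adjustment over all of them. The SE of a log2 fold change is its size divided by the square root of F. A gene was called, and is said to rise or fall, at an adjusted p under 0.05. The fit was tested on simulated data before use. Ratios within a library were tested by exact permutation. Alternatives included DESeq2 1.42.0 and limma 3.58.1 (voom). The fit left out 10624 genes with few reads. No 2 replicates matched within sampling noise (chi-square per degree of freedom 11.2 or more).

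The members, further lists and tests were chosen with earlier results of these data known. Every library's value is given for called members averaging 1 CPM or more in either group and for Fga, Fgb, Fgg, F2, F3, Plg, Serpinc1, Proc, Kng1 and Kng2 whatever their result. Of each further list, up to 3 called genes per direction with the largest change are named, as for the hepatocyte, endothelial, Kupffer, neutrophil and platelet markers. Of 8 stellate cell markers tested, Dcn rose (0.49) and Col3a1 (−2.32) and Col1a1 (−1.04) fell. Of 5 cholangiocyte markers tested, 0 rose and Spp1 fell (−0.96). Over all tested genes 18.6% rose and 20.0% fell. The part of these cells in the members' values was not tested. A gene of the fibrinolysis regulators that this would name is not reported here. Positions and exon lengths are from GENCODE M21 (GRCm38). Promoters are from RefSeq, without chromosome 18, where 26 of 34 members matched. Motifs were searched on both strands. The C/EBP palindrome TTGCGCAA, contained in TTGCNNAA, was found in 1 member and 0.183% of promoters, TTCCNGGAA (STAT3) in 2 and 1.15%, TGACGTCA in 1 and 1.79%, CACGTG in 1 and 7.15%, and TGTTTGC in 3 and 5.07%.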

Additional observations from a re-analysis of the deposited data

Results flagged for a closer look

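Among 72 groups of 5 livers checked for a library far from the rest, 2 were set apart, fewer than the 1 in 20 that chance gives. Starved liver 5 had 33.7 CPM of F11, where the next highest starved liver had 21.3 CPM. Fed liver 2 had 1.23 CPM of Plat, where the next highest fed liver had 0.773 CPM.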

How the results depend on the processing

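Of the 16 called members, 9 kept their call and direction in all 19 alternatives: F9 and Thbd as higher, and F3, F8, F11, Klkb1, Proz, Serpina10 and Tfpi as lower. F10, Proc and Plat lost the call in 10 or more alternatives. Of the 16 members not called, 11 were called in none. The matching shares over all tested genes are not given here, so these counts carry no comparison. At an adjusted p under 0.01, 2 members were higher, against 6, and 7 lower, against 10, beside 9.94% and 11.9% of all tested genes. The DESeq2 Wald test and limma-voom each called 6 higher and 10 lower. Of all 12796 tested genes, the Wald test called 2846 higher and 2678 lower, and limma-voom 2249 and 2732. The filter of 1 CPM in 5 libraries left Plat and Plaur untested. Leaving out 1 library gave 5 to 6 higher and 7 to 13 lower. Beside these, 1868 to 2766 genes were higher and 2043 to 2847 lower, of 12867 to 12942 tested. Uncalled values changed sign with library totals alone for Fga (−0.054), Fgg (−0.031), Kng2 (−0.019) and Vwf (−0.017), and for F5 without starved libraries 2 and 4 (−0.22). They also did in single-library omissions for F2 (range −0.13 to 0.0024), F5 (−0.034 to 0.30) and Fga (−0.030 to 0.22). The Fga to Fgg difference ranged from −0.069 to 0.0096 in such omissions, and the Fgb to Fgg difference was −0.0056 without starved libraries 2 and 4. For Kng2 to Kng1, the difference was 0.29 to 0.41 over single-library omissions and 0.21 without starved libraries 2 and 4. The causes were not tested.

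Mice with the same number deviated together little (correlations of deviations −0.045 to 0.20, and 3 of 10 libraries were closest to their own number), so the numbers were not taken as pairs, although the labels speak of pairs of mice. With a replicate block 5 members rose and 8 fell, beside 2029 and 2381 of 12796 tested genes. F10, Proc and Plat were then no longer called (adjusted p 0.0750, 0.0722 and 0.0535, edgeR). The paired test of Kng2 to Kng1 (0.37) gave an adjusted p of 0.25, where 5 pairs cannot give an exact p below 0.0625. Plat, Plaur, Plau and F13a1 rest on 106 to 376 reads in all libraries, so their values are imprecise.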
